A study of Mus musculus with 4 samples.

Results

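Enpp1 and 8 other genes for enzymes and transporters that act on nucleotides, pyrophosphate or phospholipids outside the cell were followed in cultured mouse neurons transfected with a DcpS short hairpin RNA (shRNA). They were taken by symbol from the deposited table: 9 genes of 32681. The list was drawn up around Enpp1 with the contrast of DcpS shRNA and control shRNA in these same libraries already known, so the log2 fold changes count among the values the members were chosen by. The differences between the groups given here for these 9 genes are therefore descriptions, with no test of their own. Of the 9, 8 passed the filter on low reads and entered the fit across 18110 genes, and Entpd2 did not.

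The cultures came from the neocortex of wild-type CD-1 mouse embryos, an outbred strain, at embryonic day 13, and were kept in Neurobasal medium with B27 supplement. RNA was sequenced in 2 libraries of cells transfected with a control shRNA and 2 of cells transfected with one that targets DcpS, an enzyme that clears the capped remnants of degraded mRNA. Both DcpS shRNA titles carry the same hairpin name, and the labels do not say which share of the cells was transfected. Nothing in the labels says that the libraries of a group came from separate litters or cultures, so errors and p-values measure the spread between these libraries, which may be technical.

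The 4 libraries held 17754768 to 21793685 reads. Dcps itself had normalised read counts of 499.8 and 506.6 in the controls, against 114.5 and 119.6 with DcpS shRNA, which left 23.3% ± 0.716 (SD, n = 2) of the control mean. A normalised read count is the number of reads of a gene divided by a library's size factor, as deposited. Markers of neurons and of the cortical projection lineage were present in every library: their highest members were Dcx, a microtubule protein of migrating neurons, and Neurod6, a transcription factor of cortical projection neurons. A gene was called higher or lower with DcpS shRNA where its Benjamini-Hochberg adjusted p in limma was under 0.05 over all tested genes. Of the 7 neuronal markers Rbfox3 was called higher and Snap25 and Syt1 lower. The calls of Rbfox3 and Syt1 ended in DESeq2 and without control replicate 2, that of Rbfox3 also without DcpS shRNA replicate 2, and those of Syt1 and Snap25 without control replicate 1. The neuronal markers together had 84235 and 83314 normalised reads in the controls, against 81246 and 80118 with DcpS shRNA.

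ATP that leaves a cell is broken down step by step at the surface. Ectonucleotide pyrophosphatases of the ENPP family cut ATP to AMP and pyrophosphate, NTPDases remove terminal phosphates, and 5′-nucleotidase turns AMP into adenosine, which acts on its own receptors. Pyrophosphate restrains mineral deposition: Enpp1 makes it, Ank exports ATP and pyrophosphate from the cell, and Alpl, the tissue-nonspecific alkaline phosphatase, degrades it. Enpp1 also hydrolyses the messenger cyclic GMP-AMP outside cells, while Enpp2, known as autotaxin, makes the signalling lipid lysophosphatidic acid.

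Enpp1 and Enpp2 had fewer normalised reads with DcpS shRNA and Alpl had more. Enpp1 dropped to 39.5% ± 6.33 of its control mean and Enpp2 to 59.7% ± 4.53, while Alpl reached 176% ± 0.272 (SD over the 2 DcpS shRNA libraries, each divided by the control mean). These SDs leave out the spread of the controls and any counting error. The small one of Alpl comes from 2 near-equal values that rest on 81 and 66 reads. Ank, Enpp4 and Enpp5 stayed between 93.0% and 117% of their control means, and Nt5e, Entpd1 and Entpd2, all with few reads, between 88.8% and 112%.

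**Figure D1:**
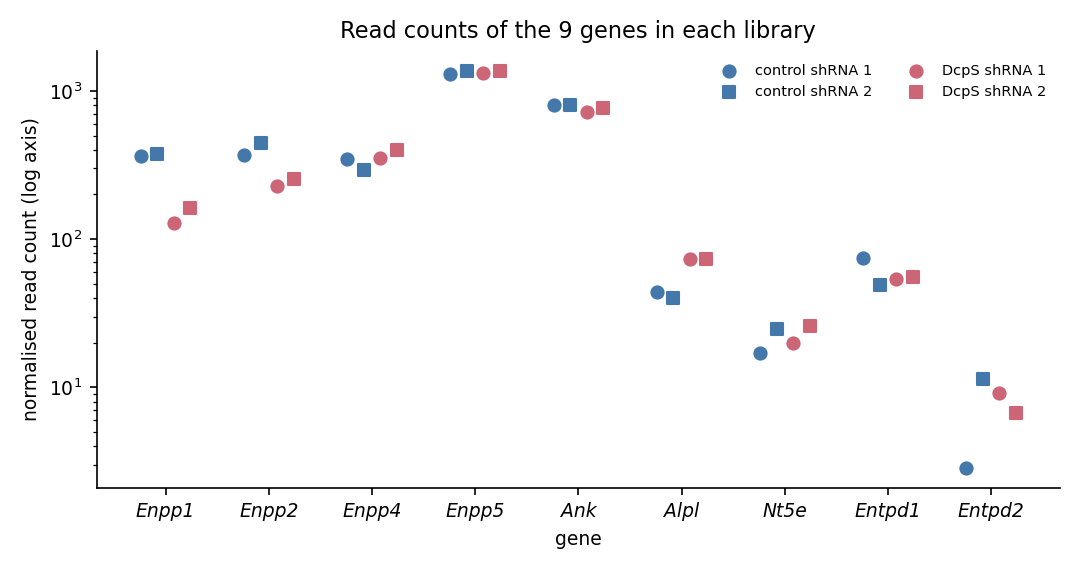
Normalised read counts (log axis) of the 9 genes; each point is 1 library, blue for control shRNA and red for DcpS shRNA, circles for replicate 1 and squares for replicate 2. Enpp1 sits at 362 and 375 in the controls and at 129 and 162 with DcpS shRNA, Enpp2 is also lower in both DcpS shRNA libraries, and Alpl is higher in both.

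A stretch of the Enpp1 3′ untranslated region (UTR) is printed because it holds letters that are also in the Dcps transcript. An earlier analysis of these data had singled out the 7-base words ACGTGCA and CACGTGC, which overlap by 6 bases where both occur in a row. They were searched on the transcript strand in the 3′ UTRs of GENCODE M21 protein-coding transcripts. The capitals mark the longest run of 9 bases that the Enpp1 and Dcps sites share, and the 10 bases on each side are in lower case, 5′ to 3′ along the transcript.
Enpp1: cacacccacaCACGTGCATgctcttgaat
Dcps: ctatcacctgCACGTGCATttcacagctc

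The Enpp1 site lies at chr10:24641032-24641060 (GRCm38, minus strand) and the shared run starts at base 756 of a 3′ UTR of 3892 bases. The Dcps site lies at chr9:35124745-35124773, also on the minus strand, with the run at base 127 of a 3′ UTR of 478 bases. Of the 9 members, Enpp1 alone has either word in an annotated 3′ UTR. Outside the 3′ UTR, CACGTGC is in 1 Alpl transcript and ACGTGCA in 3 Nt5e transcripts. Enpp2, the other lower member, has a 3′ UTR of 465 bases with neither word, and neither word was found for Alpl in its 704 bases.

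Among 13700 tested genes with an annotated 3′ UTR, 1096 (8%) hold either word and 66 (0.482%) hold the 9-base run. Of those 66 genes, 13 (19.7%) were called lower, among them Enpp1 and Dcps, from which the run was defined. The share was 214 (19.5%) of the 1096 genes with either word and 148 (25.5%) of those with ACGTGCA. For CACGTGC it was 141 (17.1%), and of all 13700 genes 646 (4.72%) were called lower. The words came from an earlier analysis of these same data, so these shares are descriptions and no test. Enpp1 has a long 3′ UTR, longer than that of 90.7% of these genes, whose median is 1228 bases, and a longer UTR has room for more words of any kind. The match is a description of letters, and its part in the Enpp1 value was not tested.

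Enpp1, the pyrophosphate-making ectoenzyme (chromosome 10, 24637914 to 24712159, minus strand, GRCm38), had normalised read counts of 362 and 375 in the controls, against 129 and 162 with DcpS shRNA. Both DcpS shRNA libraries lay below both controls, and the gap was several times the difference within either group. The means were 369 ± 9.43 and 146 ± 23.3 (SD, n = 2 per group), a log2 fold change of −1.34 (SE 0.12, 95% interval −1.60 to −1.09). These values rest on 381 and 366 reads in the controls, against 142 and 145 with DcpS shRNA. No other gene of GENCODE M21 overlaps Enpp1 on either strand.

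Enpp1 kept its direction and its call in each of the 13 other settings tried. Leaving out 1 library moved its log2 fold change between −1.51, without DcpS shRNA replicate 2, and −1.18, without DcpS shRNA replicate 1. Listed markers of meningeal fibroblasts and mural cells, given after Enpp2 below, summed to fewer normalised reads in both DcpS shRNA libraries. In bulk RNA fewer cells of a type and less RNA per cell cannot be told apart, and the part of these cells in the Enpp1 value was not tested.

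Ank, the membrane protein through which ATP and pyrophosphate leave the cell (chromosome 15, 27466677 to 27594909, plus strand), had 800.0 and 798 normalised reads in the controls, against 721 and 764 with DcpS shRNA. The controls were almost equal and both lay above the DcpS shRNA libraries, by a margin smaller than the spread between those 2 libraries. Its log2 fold change was −0.11 (SE 0.07, 95% interval −0.25 to 0.04) and did not pass the threshold. The interval measures only the spread between these libraries, and its lower end is a decrease of 0.25 on the log2 scale.

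Alpl, the phosphatase that splits pyrophosphate (chromosome 4, 137741733 to 137796384, minus strand), moved the other way. It had 43.7 and 40.0 normalised reads in the controls, against 73.6 and 73.8 with DcpS shRNA, from 39 to 81 reads a library. The groups did not overlap, and the log2 fold change was 0.80 (SE 0.20, 95% interval 0.39 to 1.22). The value rests on few reads, and its SE is larger than that of Enpp1.

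The Alpl call was not stable. It ended without control replicate 2, without DcpS shRNA replicate 1, without DcpS shRNA replicate 2 and with DESeq2. Its log2 fold change stayed between 0.74 and 0.87 over the 13 settings.

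Set against each other per length of exon, Enpp1 stood above Alpl in the controls and below it with DcpS shRNA. Enpp1 reads per kilobase were 3.26 and 3.69 times those of Alpl in the controls, against 0.689 and 0.864 times with DcpS shRNA. Counting length over the longest coding transcript in place of all merged exons gave 3.08 and 3.49 in the controls, against 0.652 and 0.818 with DcpS shRNA. The ratio thus lay above 1 in both controls and below 1 in both DcpS shRNA libraries with either length. With DcpS shRNA it rests on 142 and 145 Enpp1 reads and on 81 and 66 Alpl reads. No counting error was worked out for it, so the order of these genes with DcpS shRNA is not settled. The ratio of Enpp1 to Ank was 0.159 and 0.166 in the controls, against 0.0629 and 0.0746 with DcpS shRNA, so the exporter transcript was the more abundant in every library.

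**Figure D2:**
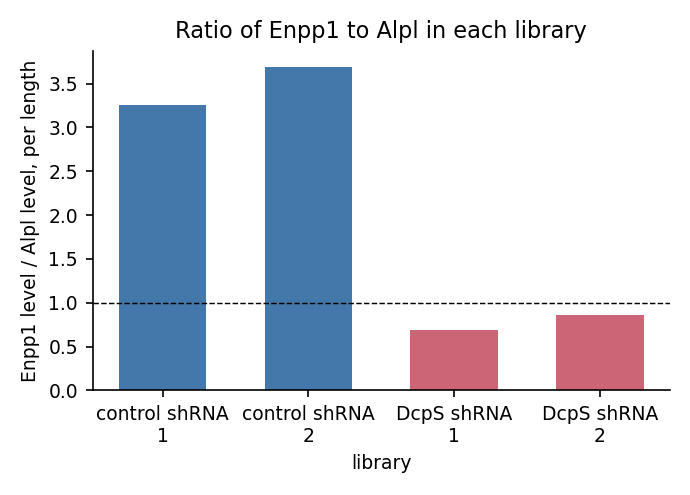
Ratio of the Enpp1 level to the Alpl level, both in RPKM, with 1 bar per library (blue control shRNA, red DcpS shRNA) and a dashed line at equal levels. The controls stand at 3.26 and 3.69 and the DcpS shRNA libraries at 0.689 and 0.864.

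Enpp2, the secreted lysophospholipase D that makes lysophosphatidic acid (chromosome 15, 54838901 to 54952892, minus strand), was the second member lower with DcpS shRNA. Its normalised read counts were 372 and 442 in the controls, against 230 and 256 with DcpS shRNA. The lower control still lay above both DcpS shRNA libraries. The log2 fold change was −0.74 (SE 0.11, 95% interval −0.97 to −0.51), and it kept its call in all 13 other settings, between −0.86 without control replicate 1 and −0.61 without control replicate 2. Enpp2 shares 345 exon bases with a long noncoding RNA on the opposite strand, Gm26684, and whether counting used strand is not given in the sources used here.

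Markers of other cells were present, and several moved in the same direction as Enpp1 and Enpp2. The 8 meningeal fibroblast markers summed to 10508 and 11611 normalised reads in the controls, against 6561 and 6258 with DcpS shRNA, and 6 of the 8 were called lower: the collagens Col1a1, Col1a2 and Col3a1, the matrix proteoglycans Dcn and Lum, and the receptor Pdgfra. The highest, Col3a1, had a log2 fold change of −0.77 (SE 0.06). DESeq2 called the 3 collagens and not Dcn, Lum or Pdgfra, whose calls also ended without control replicate 2, and that of Lum without control replicate 1 or DcpS shRNA replicate 1. The 6 mural markers summed to 740 and 744 in the controls, against 454 and 415 with DcpS shRNA. Most of this sum was Pdgfrb (506 and 534, against 329 and 304). Of 5 tested, Pdgfrb (−0.72) and the smooth muscle actin Acta2 (−1.93) were called lower, both in all 13 other settings as well. The 3 not called were Rgs5 (−1.27, called lower by edgeR), Abcc9 (−0.86) and Cspg4 (−0.09). The 7 choroid plexus markers summed to 5642 and 5842 in the controls, against 4297 and 4621 with DcpS shRNA, a sum made up mostly of Ttr (5022 and 5195, against 3748 and 4105). Of 6 tested, Ttr (log2 fold change −0.38) and Aqp1 (−0.71) were called lower. The Aqp1 call ended in DESeq2, with library-total scaling, and without control replicate 1, control replicate 2 or DcpS shRNA replicate 1. The 4 not called were Folr1 (−0.47), Otx2 (−0.44), Clic6 (−0.04) and Kcne2 (0.48). Choroid plexus epithelium is a known site of high Enpp2 expression, and the part of its cells in the Enpp2 value was not tested.

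Endothelial markers, which matter for Alpl and Entpd1 as genes of brain vessels, were scarce: their sum was 142 and 188 in the controls, against 102 and 108 with DcpS shRNA, with Cldn5 at no more than 2 reads in a library. Most of the sum was Kdr, the 1 of 4 tested that was called (lower, log2 fold change −0.74), and this call ended in DESeq2 and without control replicate 2. Pecam1 had 5.70 and 12.3 normalised reads in the controls, against 19.99 and 14.5 with DcpS shRNA (0.93, not called), Slco1a4 was at −0.97 and Cdh5 at −0.59, also not called. Microglia and macrophage markers, which bear on Entpd1, summed to 184 and 179 in the controls, against 172 and 171 with DcpS shRNA, with 0 of 6 called by limma, edgeR or DESeq2 and 1 (Tmem119) at an unadjusted limma p under 0.05; the highest was Aif1. Astrocyte markers summed to 7597 and 7730 in the controls, against 7535 and 7735 with DcpS shRNA. Most of this sum was Slc1a3 and Aldoc, and Aldoc had 3825 and 3778, against 4391 and 4395. Of 6 tested, Gfap (−0.91), Aqp4 (−1.13) and Gja1 (−0.67) were called lower and Aldoc (0.21) higher. The 2 not called were Aldh1l1 (−0.43) and Slc1a3 (−0.12), and the median log2 fold change of the 6 was −0.55. The calls of Gfap, Aqp4 and Aldoc ended without control replicate 2, those of Gfap and Aqp4 also without DcpS shRNA replicate 1, that of Gfap without DcpS shRNA replicate 2, that of Aldoc without control replicate 1 and that of Aqp4 in DESeq2. Oligodendrocyte lineage markers summed to 582 and 627, then 562 and 576, with 1 of 6 lower (Pdgfra) and 1 higher (Mbp). DESeq2 called neither, and the Mbp call also ended without control replicate 1 or DcpS shRNA replicate 2. No listed marker was at 0 in all 4 libraries, and the part of these cells in the values of the 9 genes was not tested.

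Enpp4 and Enpp5 are transmembrane members of the family and neighbours on chromosome 17. Enpp5 (44078813 to 44086567, plus strand) and Enpp4 (44096308 to 44105809, minus strand) run towards each other with 9740 bases between them. Enpp4, which is known to hydrolyse diadenosine triphosphate, had 346 and 294 normalised reads in the controls, against 353 and 398 with DcpS shRNA. Its DcpS shRNA libraries lay above both controls, the nearer one by less than the spread within either group. The log2 fold change was 0.23 (SE 0.10) and did not pass the threshold over all genes, although the interval for this gene alone ran from 0.01 to 0.45.

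Enpp5 had the most reads of the 9 members and had the smallest log2 fold change of the 8 tested. It had 1295 and 1371 normalised reads in the controls, against 1323 and 1366 with DcpS shRNA, so the groups overlapped. The log2 fold change was 0.01 (SE 0.06), with a 95% interval of −0.11 to 0.14 that measures only the spread between these libraries. Its sign turned without control replicate 1 (−0.03) or DcpS shRNA replicate 2 (−0.01).

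The 3 enzymes that take nucleotides down to adenosine had few reads in these cultures. Entpd1, also called CD39, which removes phosphates from ATP and ADP (chromosome 19, 40612366 to 40741602, plus strand), had 74.1 and 49.2 normalised reads in the controls, against 53.6 and 55.9 with DcpS shRNA. Both DcpS shRNA libraries lay between the controls. The log2 fold change was −0.14 (SE 0.22), and it became 0.15 without control replicate 1. The interval, −0.60 to 0.32, takes in both directions.

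Nt5e, or CD73, the surface enzyme that makes adenosine from AMP (chromosome 9, 88327197 to 88372092, plus strand), had 17.1 and 24.6 normalised reads in the controls, against 19.99 and 25.7 with DcpS shRNA. The groups overlapped and the log2 fold change was 0.14 (SE 0.32), which turned to −0.11 without control replicate 1 and to −0.04 without DcpS shRNA replicate 2. The interval ran from −0.54 to 0.81 and takes in a change as large as that of Alpl.

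Entpd2, which acts mainly on ATP (chromosome 2, 25395874 to 25401321, plus strand), had 3 and 11 reads in the controls, against 10 and 6 with DcpS shRNA and was not tested. Its exons share 612 bases with Npdc1, a gene on the same strand, so reads of these bases cannot be assigned to it with certainty.

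Of the 8 tested members, 2 were called lower and 1 higher. Over all tested genes 5.79% were called, 3.65% lower and 2.14% higher, and since the members were chosen with this contrast known, nothing is read from that count. Groups did not overlap for 5 of the 8 (Enpp1, Enpp2, Enpp4, Ank and Alpl), 2 of them higher and 3 lower with DcpS shRNA, as for 48.4% of all tested genes, 24.4% higher and 24% lower. The median log2 fold change of the 8 was −0.05, and that of all tested genes was 0.00074.

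**Figure D3:**
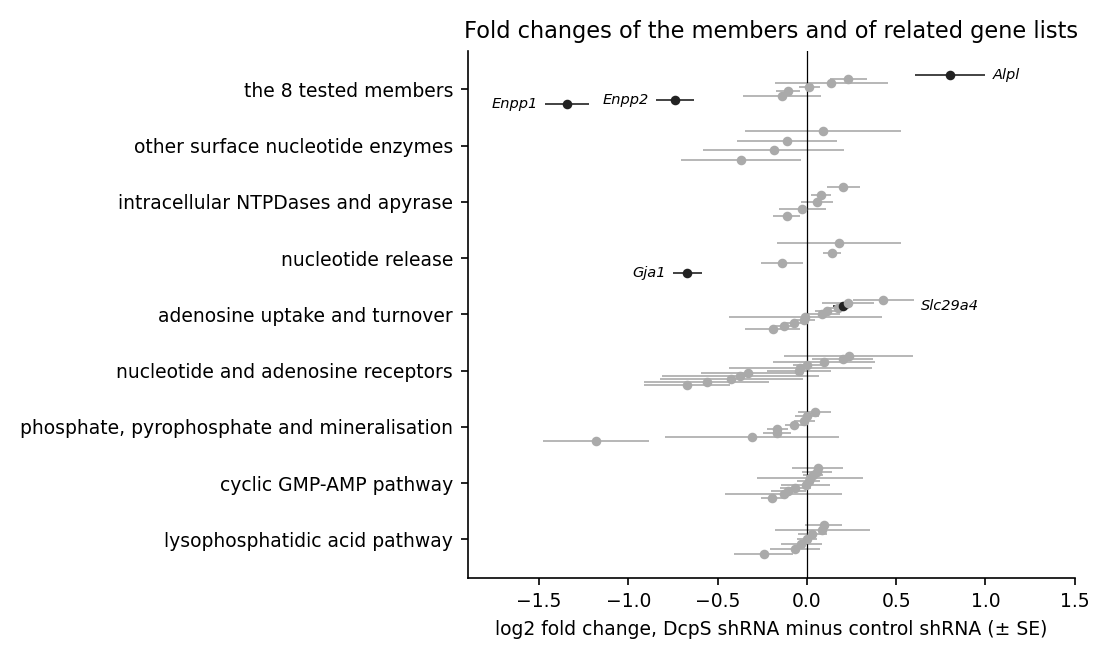
Log2 fold change (DcpS shRNA minus control shRNA, ± SE) of each tested member and of each tested gene of 8 related lists, 1 point a gene; black points with names passed the limma threshold and grey points did not. Enpp1, Enpp2 and Alpl stand out among the members, and of the 60 tested genes of the lists Gja1 and Slc29a4 were called.

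Per length, the membrane proteins Enpp5 and Ank were the most abundant of the 9 transcripts. In reads per kilobase of merged exon scaled to the library total (RPKM), the control means were 13.8 ± 0.571 for Enpp5 and 11.2 ± 0.0115 for Ank (SD, n = 2). Enpp2 at 3.55 ± 0.438 and Enpp4 at 3.54 ± 0.400 followed, and their controls overlapped, so their order is not settled. Enpp1 came next at 1.81 ± 0.0480.

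Below Enpp1, Entpd1 (0.558 ± 0.159) and Alpl (0.524 ± 0.0324) overlapped in the controls, as did Entpd2 (0.168 ± 0.142) and Nt5e (0.122 ± 0.0313). In RPKM with DcpS shRNA, Enpp4 (4.15 ± 0.349) lay above Enpp2 (2.12 ± 0.158), and Alpl (0.922 ± 0.000112) above Enpp1 (0.716 ± 0.114), in both libraries. Per longest coding transcript the DcpS shRNA means of Enpp4 and Enpp2 were 4.15 and 3.96, so their gap depends on the length used. The small SD of Alpl leaves out counting error, and the order of Alpl and Enpp1 with DcpS shRNA is not settled. Over the longest coding transcript the first 5 places in the controls were the same, and the order within the pair of Entpd1 and Alpl and the pair of Entpd2 and Nt5e changed. Of the reads per kilobase of the 4 ENPP members, Enpp1 took 7.98% and 7.96% in the controls, against 3.13% and 3.69% with DcpS shRNA, and Enpp5 took 60.3% and 61.4%, then 67.7% and 65.6%.

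**Figure D4:**
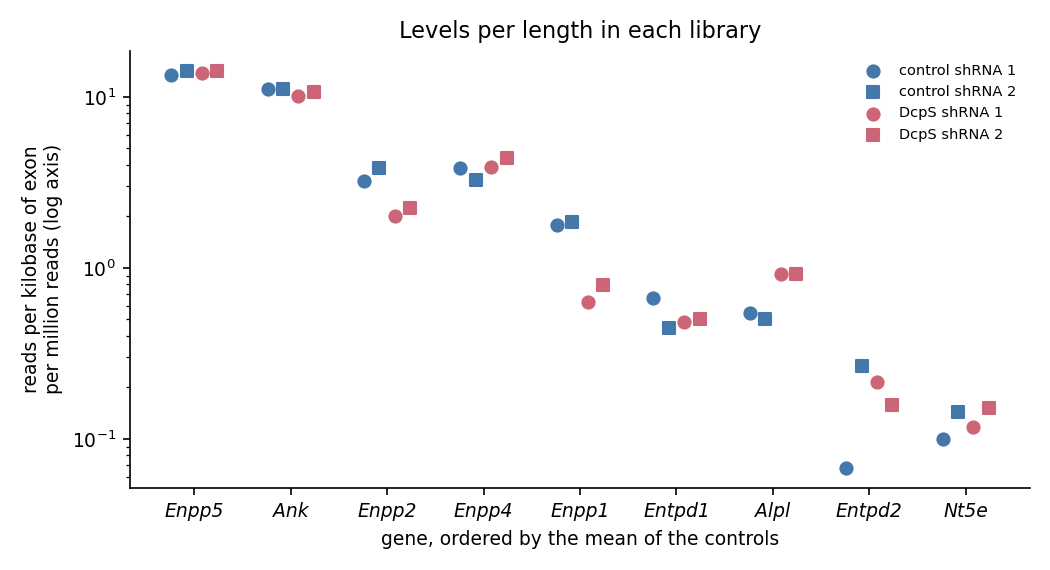
Levels of the 9 genes in RPKM over merged exons (log axis), ordered by the control mean, with 1 point per library (blue control shRNA, red DcpS shRNA, circles replicate 1, squares replicate 2). Enpp5 and Ank lie above 10 in every library, and the Alpl points lie above those of Enpp1 with DcpS shRNA.

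Other genes of the same pathways were looked at in 8 related lists. The lists held 94 genes, of which 87 were in the table and 60 were tested. Of the 60, 1 was called higher and 1 lower (3.33%, against 5.79% of all tested genes). Nothing is read from so small a count. The median log2 fold change of the 60 was −0.02. The lower gene was Gja1, the gap-junction protein connexin 43, whose hemichannels can release ATP: 688 and 706 normalised reads in the controls, against 412 and 465 with DcpS shRNA (log2 fold change −0.67, SE 0.08, limma, Benjamini-Hochberg adjusted p 8.15e-05). Gja1 is on the astrocyte marker list as well.

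The higher gene was Slc29a4, a plasma membrane transporter of monoamines and adenosine. It had 2345 and 2264 normalised reads in the controls, against 2678 and 2616 with DcpS shRNA (log2 fold change 0.20, SE 0.05, limma, Benjamini-Hochberg adjusted p 0.0351). That call ended without control replicate 1 (limma, Benjamini-Hochberg adjusted p 0.128), without control replicate 2 (0.325) or in DESeq2 (0.134), in a range of 0.0144 to 0.325 over the 13 settings. The other 10 tested genes for adenosine uptake and turnover were not called, among them the adenosine kinase Adk, with a log2 fold change of −0.02 (SE 0.06).

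None of the 11 tested receptors for nucleotides or adenosine passed the threshold in limma, edgeR or DESeq2, and 1 (P2rx5) had an unadjusted limma p under 0.05. Adora1, the inhibitory adenosine receptor and the most abundant of them by reads, had 513 and 536 normalised reads in the controls, against 524 and 525 with DcpS shRNA (log2 fold change 0.00, SE 0.08). The ATP-gated channel P2rx4 followed, at 84.6 and 110 in the controls, against 102 and 121 with DcpS shRNA. In both genes the groups overlapped.

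Other surface enzymes had few reads. Enpp3, which lies 60246 bases from Enpp1 on the same strand, had 23.8 and 17.4 normalised reads in the controls, against 15.4 and 15.6 with DcpS shRNA, with a log2 fold change of −0.37 (SE 0.34). The highest of that list was Entpd3, at 23.6 to 27.7 in the 4 libraries. None of its 4 tested genes was called in limma, edgeR or DESeq2, and 0 had an unadjusted limma p under 0.05. Of the 5 intracellular NTPDases and apyrases 0 were called by these tools and 1 (Entpd5) had an unadjusted limma p under 0.05; Cant1 had the most normalised reads (1276 to 1362) and Entpd6 came next (536 to 610).

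For phosphate and pyrophosphate handling, 0 of 8 tested genes passed in limma, edgeR or DESeq2, and 3 (Slc20a2, Spp1 and Smpd3) had an unadjusted limma p under 0.05. The phosphate exporter Xpr1 (log2 fold change −0.07, SE 0.05) and the phosphate importer Slc20a1 (−0.02, SE 0.06) had the most reads. Abcc6, a transporter known to drive ATP release from liver, had at most 6 reads in a library. Osteopontin, Spp1, a phosphoprotein that binds mineral, had 156 and 263 normalised reads in the controls, against 70.9 and 111 with DcpS shRNA, and did not pass (−1.18, SE 0.30, limma, Benjamini-Hochberg adjusted p 0.0826). Leaving out 1 library moved its log2 fold change between −1.56 and −0.81. The highest adjusted p over the 13 settings was 0.27, in limma without the filter on low reads. With the replicate number as a block it passed in limma (Benjamini-Hochberg adjusted p 6.1e-12) and edgeR (3.54e-08). Replicate 2 was the higher library in both groups, a spread that the block takes up. The labels do not state such a pairing, so nothing is read from the 2 passes with the block. Spp1 and Abcc6 were singled out after their values were seen.

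In the lists for the substrates and products of Enpp1 and Enpp2, no gene was called by limma, edgeR or DESeq2. In the cyclic GMP-AMP list 0 of 10 tested genes passed and 1 (Lrrc8d) had an unadjusted limma p under 0.05: the volume-regulated channel subunits Lrrc8d (log2 fold change −0.20, SE 0.06) and Lrrc8b (0.03, SE 0.06) had the most reads, and the sensor Cgas and its adaptor Sting1 had 17.4 to 30.4 normalised reads. In the lysophosphatidic acid list 0 of 7 passed and 0 had an unadjusted limma p under 0.05: the lipid phosphatase Plpp3 (0.00, SE 0.06) and the receptor Lpar1 (0.03, SE 0.08) had the most reads.

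The 5 genes whose values across the 4 libraries lay nearest to those of Enpp1 were Mmp9, Lgals3bp, Thbs2, Wfdc2 and Postn. Nearness was the Euclidean distance, over the 4 libraries, of log2 values centred on the control mean, among 12288 other genes whose mean reached 5 CPM. The distances ran from 0.21 for the gelatinase Mmp9 to 0.40 for the matricellular protein Postn. With 4 libraries in 2 groups this measure mainly finds genes with a similar fold change, and 1 of the 5, Lgals3bp, has either 7-base word in its 3′ UTR.

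**Figure D5:**
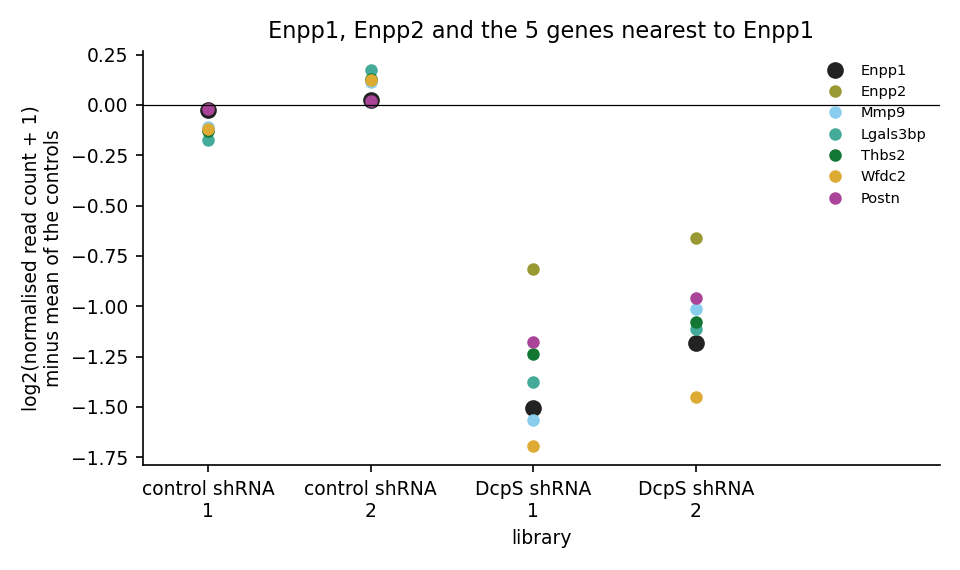
Log2(normalised read count + 1) minus the mean of the controls, for Enpp1 (large black points), Enpp2 and the 5 genes nearest to Enpp1, in each of the 4 libraries. All 7 genes are lower in both DcpS shRNA libraries than in both controls, as are 24% of all tested genes. The 7 were chosen with these values known, so nothing is read from their count.

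The nearest coding genes on each side of the members were looked at after the values were seen. Of 16 such genes outside the set, 13 were tested, 3 were called lower and 1 higher. Over all tested genes 3.65% were called lower and 2.14% higher, and nothing is read from so small a count. Enpp1 and Enpp2 each lie beside a gene of the CCN family of matricellular proteins, and these differed in direction. Ccn2, 39230 bases from Enpp1, had 113 and 137 normalised reads in the controls, against 77.2 and 68.2 with DcpS shRNA (log2 fold change −0.77, SE 0.17, limma, Benjamini-Hochberg adjusted p 0.0101). That call ended without control replicate 2 (limma, Benjamini-Hochberg adjusted p 0.121) and in DESeq2 (0.0957), in a range of 0.000286 to 0.121 over the 13 settings.

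Ccn3, 84861 bases from Enpp2, had 78.9 and 73.8 normalised reads in the controls, against 152 and 150 with DcpS shRNA, a change of 0.97 (SE 0.15) opposite in sign to that of Enpp2. The transcription factor Tbx18, 595936 bases from Nt5e, was lower (−0.99, SE 0.18), as was Tctn3 beside Entpd1 (−0.36, SE 0.09). The call of Tctn3 ended without control replicate 1 (limma, Benjamini-Hochberg adjusted p 0.0545), control replicate 2 (0.265) or DcpS shRNA replicate 1 (0.0839) and in DESeq2 (0.242), in a range of 0.0068 to 0.265 over the 13 settings. Rap1gap and Ece1, on either side of Alpl, had log2 fold changes of 0.19 (SE 0.08) and 0.22 (SE 0.10) and were not called.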

How the data were processed

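RNA was measured in 2 control shRNA and 2 DcpS shRNA libraries. The submitters' processing notes name HISAT2 2.2.0, SAMtools 1.3.1, Picard, featureCounts and DESeq2 and the build GRCm38; for annotation, strand setting and multi-mapping reads, details were not given in the sources used here. Deposited values are a signal scaled by the authors: reads divided by a size factor per library. Dividing by the smallest positive value of a column gave whole reads for 100% of values (tolerance 0.001), and the implied factors equalled median-of-ratios size factors. A count of 0 allows 3 reads, or 0.138 to 0.169 CPM, for counting error only.

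The main test was limma 3.58.1 (R 4.3.3) on log2(value + 1), with a mean-variance trend and robust moderation and only the group in the model, on all 4 libraries, two-sided, at a Benjamini-Hochberg adjusted p under 0.05 over the 18110 genes kept by filterByExpr (minimum count 10). Fold changes on this scale understate changes of low genes. For 1 gene, an exact permutation test of 2 against 2 libraries has 0.333 as its smallest p. Alternatives were other pseudocounts, no filter, TMM and library-total scaling, edgeR 4.0.16 (which called 1077 genes on the recovered reads, against 1048 by limma) and DESeq2 1.42.0, a replicate block, and leaving out each library. The script was tested on simulated data.

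Members, lists and rules were chosen with earlier results of these data known. Named were all members, Dcps, called genes of each pathway list or otherwise its 2 highest, the highest and called markers, and the 5 genes nearest to Enpp1. Positions, merged exon lengths and 3′ UTRs are from GENCODE M21 (GRCm38), and the sites printed are from its transcript sequences.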

Additional observations from a re-analysis of the deposited data

How the results depend on the processing

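Enpp1 and Enpp2 kept their direction and their call in all 13 alternatives, with Enpp1 between −1.36 (edgeR) and −1.32 (pseudocount of 5) outside the leave-one-out fits and between −1.51 and −1.18 within them. The count of called members, 3, was 2 with DESeq2 and 2 to 3 without 1 library, through Alpl. Signs of uncalled members turned only when a library was left out: Enpp5 ranged from −0.029 to 0.054, Nt5e from −0.11 to 0.39 and Entpd1 from −0.43 to 0.15. Over all genes 1048 were called. DESeq2 called 453, and without 1 library it was 594 (without control replicate 2), 670 (without control replicate 1) to 1439. The titles give both groups a set 1 and a set 2, and whether a set marks a shared preparation is not stated in the labels. With this number as a replicate block, 1626 genes were called; the correlation of the deviations of same-numbered libraries was 0.04. The block changed no member's call. Scaling moved the median of all genes by less than 0.01 on the log2 scale. Of 39 named genes, 33 were called in the main setting, 17 of these in all 13 alternatives, and no called gene reversed. A lone library in an arm was assumed to vary like the others. Low depth limits Alpl, Nt5e, Entpd1 and Entpd2.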
